A study of Mus musculus with 62 samples.

Results

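Livers of mice carrying a melanoma that causes cachexia were set against livers of mock-injected mice 8 weeks after the injection. The comparison takes 12 of the 62 libraries of the series, chosen by the names of the deposited columns, and describes all expressed genes in them. They are 7 livers of female mice that received cachectic melanoma cells (CAC) and 5 livers of female mice that received a mock injection (Con). Both groups are labelled with an age of 2 months, which the study's design text gives as the age at injection. Livers of mice with a non-cachectic melanoma line (NCAC, 5 at 8 weeks), and the CAC and Con livers of 2, 4 and 6 weeks (5 of each), serve to place the 8-week difference. The labels give the strain as C57BL/6J, while the design text names athymic NCI Ath/nude mice and the extraction protocol mentions an LLC cell injection, so the strain is uncertain. The sources used here do not give the site and size of the tumours or what the mock injection held. Libraries are labelled as biological replicates, and each was taken as 1 animal.

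The acute phase response is the liver's reaction to inflammation elsewhere in the body. Cytokines of the interleukin-6 family bind receptors that share the chain gp130 and activate the transcription factor STAT3, and C/EBP factors, NF-kB and glucocorticoids act beside it, so that hepatocytes secrete large amounts of serum amyloid A, haptoglobin, fibrinogen and related plasma proteins. Cachexia is a wasting of muscle and fat during disease, and the liver takes up the amino acids and fatty acids that wasting tissues release.

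Values are TPM, the number of transcripts of a gene among 1e+06 transcripts measured, so that each library sums to 1e+06. Read depth is unknown. Differences are CAC minus Con on log2(TPM + 1) with the standard error of the limma fit, and a gene was called at a Benjamini-Hochberg adjusted p under 0.05 over the 12160 genes tested. On this scale changes of genes near 1 TPM are understated. Among these genes 714 (5.87%) were called higher and 4291 (35.3%) lower in CAC, and 189 (1.55%) and 478 (3.93%) by at least 2-fold. Where a few transcripts take a large share of a library, the others together must fall in TPM, and the median difference of all genes was -0.21. After median-of-ratios rescaling, called "rescaling" below, this median was -0.00 and 1556 genes (12.8%) were higher and 1690 (13.9%) lower, of which 294 (2.42%) and 335 (2.75%) by at least 2-fold. All 7 CAC livers lay above all 5 Con livers in 225 genes (1.85%) and below them in 741 (6.09%). All 714 genes called higher as deposited, and 1690 of the 4291 called lower, were called the same way after rescaling. Counts after rescaling therefore stand beside the deposited ones. Counts of lists below are to be read against the shares over all genes: 5.87% higher and 35.3% lower, or 12.8% and 13.9% after rescaling.

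The 16 listed hepatocyte markers summed to 175479 to 215933 TPM in CAC and 155889 to 184126 TPM in Con. The acute phase genes Fga and Hpx are among them. All 16 passed the filter of 1 TPM in 5 libraries, but it runs over all 62 libraries and is no check of the tissue. Alb, the main plasma protein of hepatocytes, held 8.02% to 9.75% of all TPM in CAC and 8.38% to 10.002% in Con. Some libraries stood apart. CAC replicate 3 had 14.8% of its TPM in the acute phase lists described here, against 26.6% to 32.8% in the other 6 CAC livers. Over 642 genes called in the same direction under both scalings and changed at least 2-fold as deposited, its median displacement from the Con mean was 47.1% of that of the other CAC livers for the 189 higher genes and 43.2% for the 453 lower ones. Con replicates 2 and 4 held pancreatic transcripts, with 1906 and 281.8 TPM of the chymotrypsinogen Ctrb1, and Con replicate 2 also muscle transcripts. All 24 tested of 26 acinar genes were lower in CAC, and 1 was without the libraries with at least 100 TPM of Ctrb1 (9 of the 62). That setting kept all CAC livers of 8 weeks but only Con replicates 1, 3 and 5. Calls lost under it therefore also come with a smaller Con group.

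Summed over the 72 of 73 listed genes that the table holds, acute phase transcripts took 27.8 ± 6.17% of TPM in CAC (SD, n = 7) and 9.90 ± 0.52% in Con (SD, n = 5). All CAC livers lay above all Con livers, which spanned 9.24% to 10.5%. The share was 10.2%, 15.2%, 21.6% and 27.8% in CAC at 2, 4, 6 and 8 weeks, and 9.56% in NCAC at 8 weeks.

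**Figure D1:**
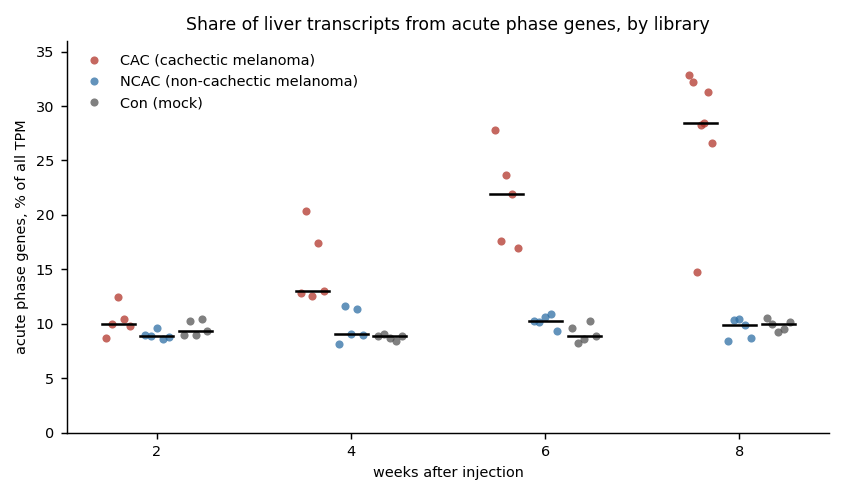
Percent of all TPM held by the acute phase lists (y axis) in every library by week after injection (x axis), for CAC, NCAC and Con; bars are medians. At 8 weeks 6 CAC livers sit between 26.6% and 32.8% and CAC replicate 3 at 14.8%, all above the Con livers.

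The stretches upstream of 10 genes described below are shown because they carry matches to known types of regulatory site, named below. They are read 5′ to 3′ on the strand of the gene and end before the annotated start (RefSeq, GRCm38.p6). Capitals mark matches on either strand: TTGCNCAA, a C/EBP-type site, and TTCNNNGAA, a STAT-type site, in the acute phase genes, Fga, Fgb and Socs3; TGCACNC or TGCGCNC, the core of the metal response element, and GNACA with TGTNC after 3 further bases, a glucocorticoid receptor-type palindrome, in the metallothioneins; and AGGNCA repeated after 1 further base, the direct repeat bound by PPAR with RXR, in Fabp1. No matches of different motifs overlap here.
Saa1, chr7:46743041-46743180, minus strand: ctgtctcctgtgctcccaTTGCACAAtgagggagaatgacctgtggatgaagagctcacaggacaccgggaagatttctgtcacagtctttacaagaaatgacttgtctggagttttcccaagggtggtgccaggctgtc
Saa2, chr7:46751633-46751772, plus strand: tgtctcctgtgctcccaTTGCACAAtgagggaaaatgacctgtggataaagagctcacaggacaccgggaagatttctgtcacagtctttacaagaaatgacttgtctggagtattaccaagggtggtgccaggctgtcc
Lcn2, chr2:32387820-32387969, minus strand: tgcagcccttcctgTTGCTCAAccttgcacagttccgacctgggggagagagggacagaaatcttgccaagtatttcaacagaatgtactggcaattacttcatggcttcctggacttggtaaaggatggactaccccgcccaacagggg
Orm2, chr4:63362299-63362378, plus strand: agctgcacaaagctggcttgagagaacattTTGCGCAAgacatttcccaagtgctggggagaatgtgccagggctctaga
Fga, chr3:83025903-83026042, plus strand: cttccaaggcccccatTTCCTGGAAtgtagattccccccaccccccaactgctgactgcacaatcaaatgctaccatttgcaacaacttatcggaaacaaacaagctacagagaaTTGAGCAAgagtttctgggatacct
Fgb, chr3:83049924-83050043, minus strand: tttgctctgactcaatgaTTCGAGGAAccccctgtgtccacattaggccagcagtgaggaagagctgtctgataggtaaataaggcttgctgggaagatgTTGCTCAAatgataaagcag
Socs3, chr11:117969467-117969546, minus strand: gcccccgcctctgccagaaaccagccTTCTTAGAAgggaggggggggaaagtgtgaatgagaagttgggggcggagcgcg
Mt1, chr8:94178979-94179088, plus strand: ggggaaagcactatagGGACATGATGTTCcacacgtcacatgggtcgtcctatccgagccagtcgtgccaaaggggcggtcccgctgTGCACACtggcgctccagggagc
Mt2, chr8:94172378-94172587, plus strand: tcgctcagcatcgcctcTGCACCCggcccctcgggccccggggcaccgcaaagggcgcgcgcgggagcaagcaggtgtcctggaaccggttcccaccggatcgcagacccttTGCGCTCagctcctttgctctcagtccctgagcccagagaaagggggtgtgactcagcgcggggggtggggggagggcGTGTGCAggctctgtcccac
Fabp1, chr6:71199779-71199858, plus strand: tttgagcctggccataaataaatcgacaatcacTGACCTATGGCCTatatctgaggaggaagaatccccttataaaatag

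The TTGCNCAA matches began 182 bases upstream of the start in Saa1, 183 in Saa2, 216 in Lcn2, 120 in Orm2, 135 in Fga and 80 in Fgb. The TTCNNNGAA matches began 234 bases upstream in Fga, 162 in Fgb and 154 in Socs3. Over the 250 bases before each start, TTGCNCAA occurred in 2.61% of all 32851 RefSeq promoters and in 11 of the 50 acute phase list genes with a promoter in the table (22%). TTCNNNGAA occurred in 7.02% of all promoters and in 10 of those 50 genes. The metal response core was found in 21.4% of all promoters, the glucocorticoid-type palindrome in 0.387% and the direct repeat in 0.338%. The NF-kB consensus, found in 3.9% of promoters, had no match in the Saa1, Saa2 and Lcn2 stretches shown and was found in 4 of the 50 acute phase list genes (8%). Of 22 glucocorticoid list genes with a promoter, TTCNNNGAA was found in 5 (22.7%), TTGCNCAA in 2 (9.09%) and the glucocorticoid-type palindrome in 2 (9.09%). Of 44 fatty acid oxidation list genes with a promoter, TTGCNCAA was found in 4 (9.09%), TTCNNNGAA in 3 (6.82%) and the direct repeat in 1 (2.27%). Shares over all promoters count each promoter, whether or not its gene was tested here. List shares count a gene once if any of its promoters matched, so these are unlike measures. A match describes letters and not binding, the windows were picked for their matches, and near-identical copies such as Saa1 and Saa2 count separately.

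Saa2 and Saa1 showed the largest rises of all genes tested. Saa2, whose product rides on high-density lipoprotein in inflammation, ranged from 3042 to 49766 TPM in CAC with a median of 39182 TPM, against 66.9, 25.9, 40.4, 44.2 and 81.1 TPM in the Con livers. The groups were far apart, with the lowest CAC value in replicate 3. The difference was 9.10 ± 0.94 (adjusted p = 7.72e-11). Its near-identical neighbour Saa1 had 3365, 35378 and 44151 TPM as lowest, median and highest CAC values, against 118, 58.1, 131, 121 and 157 TPM in Con. Saa1 again separated the groups (7.78 ± 0.79), and since such copies can share reads, the split between them is uncertain. Saa4, the form that is made constitutively, rose by 1.90 ± 0.19 and Saa3 by 1.85 ± 0.27. Of the pentraxins, ring-shaped pattern receptors, Apcs (serum amyloid P, the main acute phase pentraxin of mice) rose by 3.15 ± 0.33, and Crp, a minor one in mice, by 0.76 ± 0.13. All 6 tested serum amyloid and pentraxin genes were higher.

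The carriers of haem, iron and small lipophilic molecules moved the same way. Of 13 tested, 11 were higher and 0 lower, with the same counts after rescaling and a median of 2.07. Haptoglobin (Hp), which clears free haemoglobin, had 10016, 18292 and 18885 TPM as lowest, median and highest CAC values, against 3911, 3179.6, 2768, 2679 and 2511 TPM in Con. All CAC livers lay above all Con livers, and CAC replicate 3 was the lowest of its group by far. The haemopexin gene Hpx gained most TPM after the serum amyloids, at 19633 ± 3052 TPM in CAC against 4649.7 ± 504 in Con. Orm2, an acid glycoprotein, had 1514, 3069 and 4382 TPM as lowest, median and highest, against 151, 63.4, 151, 77.4 and 78.9 TPM in Con, a difference of 4.72 ± 0.38 (adjusted p = 4.74e-14). Orm1 rose by 2.66 ± 0.20. Lcn2, which starves bacteria of iron by binding their siderophores, reached 384 to 1255 TPM in CAC, against 18.2 to 27.3 in Con, and transferrin (Trf), which falls in human inflammation, was higher by 0.59 ± 0.10.

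Fibrinogen rose as a whole. The 3 chains Fga, Fgb and Fgg, which assemble into 1 clotting protein, were higher by 1.95 ± 0.18, 1.77 ± 0.20 and 1.85 ± 0.18, and each had all CAC livers above all Con livers. Fga held 5308, 10978 and 15449 TPM as lowest, median and highest CAC values, against 3275, 2554, 2256, 2719.8 and 2607 TPM in Con. Among 25 tested fibrinogen and plasma inhibitor genes 17 were higher and 0 lower, and 22 were higher after rescaling. Cpb2, which slows clot lysis, rose by 1.39 ± 0.11, the kininogen Kng2 by 1.26 ± 0.11, the protein Z inhibitor Serpina10 by 1.25 ± 0.11 and Serpina3n, a serine protease inhibitor, by 2.77 ± 0.27. Serpina3k rose by 0.86 ± 0.26 (adjusted p = 0.00769), a call lost without Con replicate 3 (0.62, adjusted p = 0.0639). The alpha-1 antitrypsin copies Serpina1a to Serpina1e, in contrast to fibrinogen, ranged from -0.11 to 0.52, with none called as deposited and 4 of 5 called higher after rescaling.

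Pattern recognition and complement genes rose in part. Of 24 tested, 13 were higher and 1 lower (15 and 1 after rescaling). Lbp, which hands bacterial lipopolysaccharide to its receptors, rose by 2.29 ± 0.17 (adjusted p = 1.79e-15), the smallest adjusted p of this list. The central complement component C3 rose by 1.02 ± 0.11, C4b by 1.06 ± 0.12 and the regulator Cfi by 0.83 ± 0.10. The mannose-binding lectin Mbl2, which starts the lectin branch of complement, fell by 1.06 ± 0.16, and the C1 subunits C1ra (-0.18) and C1s1 (-0.07) were not called.

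**Figure D2:**
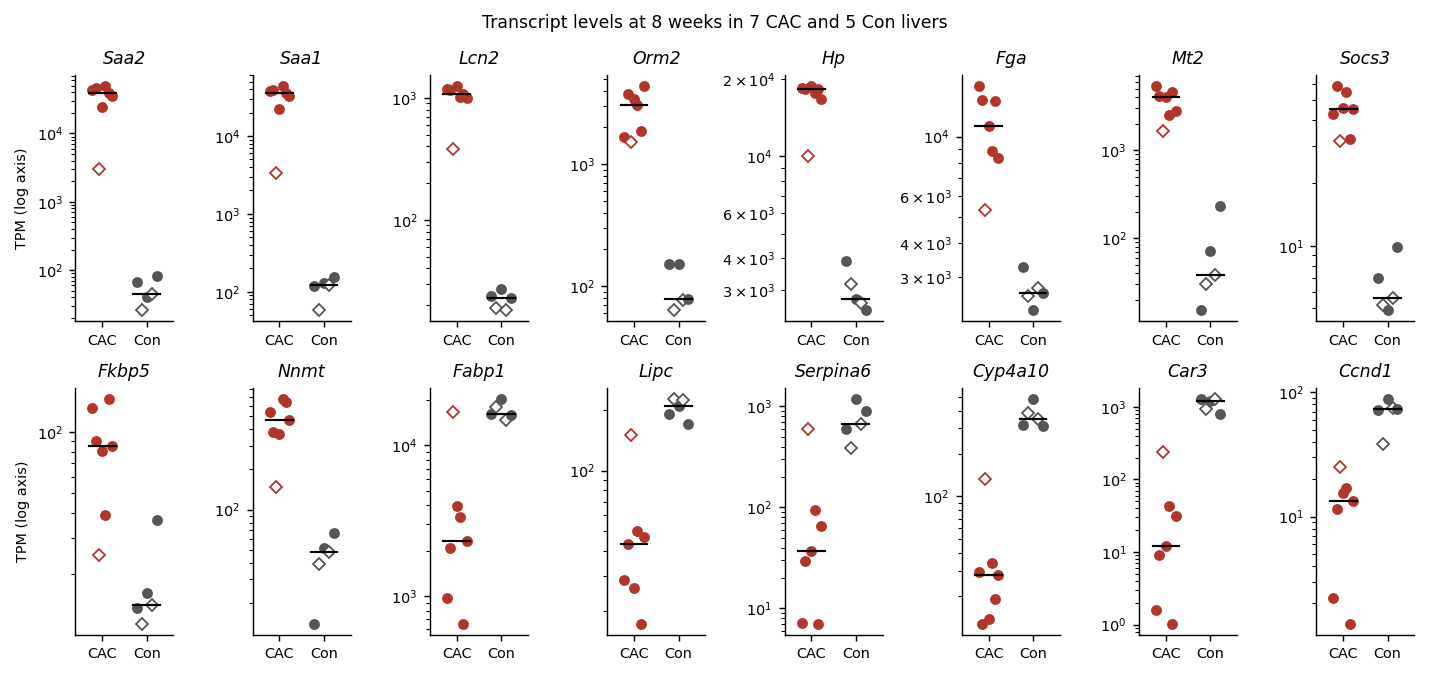
TPM (log axis) of 16 genes in every 8-week CAC and Con liver; bars are medians, the open red diamond is CAC replicate 3 and open grey diamonds are Con replicates 2 and 4. Saa1 spans 3365 to 44151 TPM in CAC and 58.1 to 157 in Con; in Fabp1, Serpina6 and Car3 CAC replicate 3 lies nearest to Con.

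In the signalling chain above these genes, receptors for interleukin-6 family cytokines changed unequally. Osmr, the oncostatin M receptor, rose by 1.43 ± 0.15, to 1.14 to 4.94 TPM in CAC against 0.368 to 0.597 in Con. Il6st, which encodes gp130, rose by 0.85 ± 0.18 (adjusted p = 0.000127). Lifr, the receptor of leukemia inhibitory factor, was lower instead. It had 19.8, 26.1 and 52.4 TPM as lowest, median and highest CAC values, against 60.3, 53.7, 94.7, 71.2 and 111.5 TPM in Con, with no overlap and a difference of -1.42 ± 0.26 (adjusted p = 2.69e-05). Il6ra, the interleukin-6 receptor itself, was higher by 0.90 ± 0.33 (adjusted p = 0.0273), but by 0.48 (adjusted p = 0.317) without the libraries with pancreatic transcripts, and its call was also lost when any 1 of CAC replicates 1 and 6 and Con replicates 2 and 4 was left out. The transcription factor Stat3 rose by 0.85 ± 0.13 and its feedback inhibitor Socs3 by 2.61 ± 0.27, with 31.8 to 58.5 TPM in CAC, against 4.90 to 9.85 TPM in Con. In all, 6 of 21 tested genes of this chain were higher and 7 lower (9 and 5 after rescaling). The cytokines Il6, Osm and Lif did not pass the filter of 1 TPM in 5 libraries.

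The C/EBP factors diverged. Cebpd, the form induced in inflammation, rose by 1.81 ± 0.30 (adjusted p = 3.69e-06) to 9.51, 15.5 and 18.3 TPM as lowest, median and highest in CAC, against 1.65, 5.09, 3.59, 2.84 and 4.73 TPM in Con. Cebpa, which maintains metabolic genes of the resting hepatocyte, fell by 1.12 ± 0.22 (adjusted p = 5.94e-05). Cebpb, which is also controlled after transcription, was not called (0.49 ± 0.29, adjusted p = 0.169), but was called higher with the acute phase lists removed and after quantile normalization. Mlxipl (ChREBP), the glucose-responsive activator of lipid synthesis, fell by 1.06 ± 0.22, and Creb3l3, a membrane-bound factor of the hepatocyte, fell by 0.53 ± 0.12 as deposited only. Hnf4a, the master regulator of hepatocyte identity, was not called as deposited (0.30, adjusted p = 0.0948) and was higher after rescaling (0.55, adjusted p = 0.00359). Over the liver-enriched factors 3 of 33 were higher and 9 lower (8 and 4 after rescaling). Of 28 nuclear receptors 0 were higher and 9 lower (1 and 4 after rescaling), with lower calls near their share over all genes (35.3% and 13.9%) and with the retinoid receptors Rxrb at -0.52, a call lost with the acute phase lists removed from the totals, and Rxrg at -0.88, and the orphan receptor Nr2f6 at -0.73. Ppara, the fatty acid sensor of the liver, was not called with all libraries (-0.82 ± 0.44, adjusted p = 0.127), but was called lower without Con replicate 2 (-1.33, adjusted p = 0.0126) and without the libraries with pancreatic transcripts (-1.68, adjusted p = 0.000647).

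Metal-binding transcripts were among the largest rises. Mt2, a metallothionein that buffers zinc and copper, had 1650.0, 4057 and 5394 TPM as lowest, median and highest CAC values, against 15.3, 30.0, 72.3, 38.5 and 234 TPM in Con. The groups did not overlap, with the Con value nearest to CAC in replicate 5. Mt2 rose by 6.04 ± 0.58 (adjusted p = 1.05e-11) and Mt1, its neighbour on chromosome 8, by 4.67 ± 0.50. The zinc and iron importer Slc39a14, which is known to respond to interleukin-6, rose by 1.29 ± 0.23, while the zinc importer Slc39a4 fell by 1.18 ± 0.16. Ferritin light chain (Ftl1), which stores iron, fell by 0.85 ± 0.16. The iron hormone hepcidin (Hamp) was not called (-1.03 ± 0.75, adjusted p = 0.271): the other 6 CAC livers held 1005 to 4143 TPM and replicate 3 held 8.49 TPM, against 1886, 2145, 2064, 3283 and 2284 TPM in Con, and without replicate 3 the difference was 0.11. Of 24 metal genes 4 were higher and 8 lower (5 and 4 after rescaling), with lower calls near their share over all genes (35.3% and 13.9%).

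Genes known to be induced by glucocorticoids rose together. Of 26 tested 17 were higher and 0 lower (20 and 0 after rescaling), with a median of 1.18 beside -0.21 over all genes; Mt1 and Mt2 are also in the metal list and Lcn2 in an acute phase list. Without the libraries with pancreatic transcripts 12 were higher. Sult1e1, which inactivates estrogens, had 5.79, 118 and 487 TPM as lowest, median and highest CAC values, against 0.127, 1.32, 0.431, 1.98 and 3.83 TPM in Con. CAC replicate 3 gave the lowest value, above all Con livers, and the difference was 5.68 ± 0.76. Fkbp5, the co-chaperone that dampens the glucocorticoid receptor, had 24.9, 85.2 and 145 TPM against 13.7, 11.4, 16.2, 14.2 and 36.9 TPM in Con. Its groups overlapped through CAC replicate 3 and Con replicate 5, with a difference of 2.07 ± 0.43 (adjusted p = 0.000127). The growth arrest genes Gadd45g (3.12 ± 0.71), Ddit4 (2.20 ± 0.45) and Cdkn1a (2.17 ± 0.60) and the tyrosine aminotransferase Tat (1.48 ± 0.30) rose. Serpina6, which encodes the corticosteroid-binding globulin of plasma, fell: CAC livers held 7.07, 37.1 and 603 TPM as lowest, median and highest, against 594, 385, 1184, 663 and 898 TPM in Con. Its highest CAC value, in replicate 3, lay within the Con range, and the difference was -4.00 ± 0.55 (adjusted p = 1.24e-07), or -4.63 without that liver. The receptor gene Nr3c1 was not called with all libraries (-0.24, adjusted p = 0.236), but was called lower without Con replicate 2 (-0.42, adjusted p = 0.0332).

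Circadian genes were called in small numbers, with 2 of 18 higher and 1 lower (1 and 2 without the libraries with pancreatic transcripts). The repressor Nr1d1 fell by 2.32 ± 0.71 (adjusted p = 0.00705) and Nfil3 rose by 0.64 ± 0.27 (adjusted p = 0.0473), a call lost when any 1 of 7 libraries was left out. Per1 was higher by 1.41 ± 0.51 (adjusted p = 0.0237), but not without Con replicate 1 (adjusted p = 0.0543) or Con replicate 2 (0.92, adjusted p = 0.148). The core factor Arntl (-0.09) and its output gene Dbp (-1.35 ± 0.65, adjusted p = 0.09) were not called, and Dbp was called lower without CAC replicate 3 (-1.69, adjusted p = 0.0307). The sources used here do not give the time of day of sampling.

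Among 20 plasma proteins known to fall in inflammation, 3 were higher and 7 lower (6 and 4 after rescaling, 2 and 4 without the libraries with pancreatic transcripts). Lower calls as deposited were near the 35.3% of all genes, which was 13.9% after rescaling. The median of the list was -0.15, beside -0.21 over all genes. The antioxidant lipoprotein enzyme Pon1 fell by 0.91 ± 0.10, with all CAC livers below all Con livers, and the lipoprotein component Apoa2 fell by 0.89 ± 0.15, to 12396 ± 3076 TPM in CAC against 22824 ± 4664 in Con. Alb (0.02 ± 0.10), the thyroxine carrier Ttr (-0.60 ± 0.65) and Apoa1 (0.33 ± 0.22) were not called as deposited; Alb and Apoa1 were called higher with the acute phase lists removed from the totals.

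Lipoprotein handling was mixed, with 3 of 36 higher and 12 lower (8 and 9 after rescaling). Over all genes 35.3% were lower as deposited and 13.9% after rescaling. Hepatic lipase (Lipc), which trims lipoprotein remnants, had 17.4, 43.0 and 151 TPM as lowest, median and highest CAC values, against 190.3, 226, 209.6, 223 and 170.4 TPM in Con. No value overlapped and the difference was -2.27 ± 0.26 (adjusted p = 1.76e-09). Apoc1 fell by 0.59 ± 0.11. Apoe fell by 0.52 ± 0.13 as deposited, a call lost after rescaling (-0.27, adjusted p = 0.158). The mitochondrially encoded mt-Co2 (-0.32), mt-Atp6 (-0.28) and mt-Co3 (-0.26), also among the largest losses of TPM, were called lower as deposited and not after rescaling, and turned positive with the acute phase lists removed (rescaled -0.07, -0.03 and -0.01).

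Genes of fatty acid oxidation fell in mitochondria and peroxisomes. Of 56 tested genes 44 were lower and 1 higher, and 39 were lower after rescaling; the median was -0.84 as deposited and -0.63 after rescaling. Fabp1, the cytosolic fatty acid carrier, had 656, 2319 and 16608 TPM as lowest, median and highest CAC values, against 16218, 17958, 20254, 14813 and 15891 TPM in Con. The other 6 CAC livers lay below all Con livers, while CAC replicate 3, at 16608 TPM, lay within the Con range. Fabp1 fell by 2.74 ± 0.38 (adjusted p = 1.74e-07), or to a difference of -3.20 without replicate 3. The peroxisomal thiolase Acaa1b fell by 4.01 ± 0.48, to 13.7 to 492 TPM in CAC against 699.9 to 983 TPM in Con. The fatty acid hydroxylase Cyp4a10 fell by 3.66 ± 0.44, the isomerase Eci1 fell by 1.22 ± 0.16, the acyl-CoA synthetase Acsm5 fell by 1.31 ± 0.17 and the peroxisomal bifunctional enzyme Ehhadh fell by 1.91 ± 0.26. In mitochondria, the carnitine transferase Cpt2 fell by 1.06 ± 0.17 and the trifunctional subunit Hadha fell by 1.03 ± 0.15, while the rate-setting Cpt1a was not called (-0.30 ± 0.26, adjusted p = 0.359). Bdh1, which interconverts the ketone bodies, fell by 1.86 ± 0.28. The exception was Acox2, an oxidase of bile acid side chains, which rose by 0.96 ± 0.19.

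For making fatty acids and triglycerides, 19 of 29 genes were lower and 0 higher (11 lower after rescaling). The desaturase Fads2 had 32.0, 78.6 and 438 TPM as lowest, median and highest in CAC, against 664, 259.7, 869.9, 457 and 787 TPM in Con, and fell by 2.54 ± 0.45. The elongases Elovl5 (-1.89 ± 0.32) and Elovl2 (-1.32 ± 0.24) fell, and the malic enzyme Me1, a source of NADPH, fell by 1.92 ± 0.28, while the lipogenic factor Srebf1 was at -0.60 ± 0.26 (adjusted p = 0.0576), just short of a call. Srebf1 was called lower without CAC replicate 2 (-0.65), replicate 4 (-0.69) or replicate 5 (-0.74). In the sphingolipid and phospholipid list 4 of 51 were higher and 20 lower (9 and 8 after rescaling). Smpd3, a neutral sphingomyelinase that releases ceramide, rose by 2.17 ± 0.22, to 2.47 to 12.7 TPM in CAC against 0.622 to 1.18 in Con. The lipase Mgll fell by 1.52 ± 0.23, the acyltransferase Lpcat3 fell by 1.00 ± 0.15, the lipid droplet coat Plin2 fell by 1.88 ± 0.32 and the lipolysis inhibitor G0s2 fell by 2.29 ± 0.52. Of 28 cholesterol genes 8 were lower (4 after rescaling), no larger a share as deposited than the 35.3% of all genes, and the smallest p belonged to the sterol desaturase Sc5d (-1.79 ± 0.27) and the SREBP escort Scap (-0.96 ± 0.17).

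**Figure D3:**
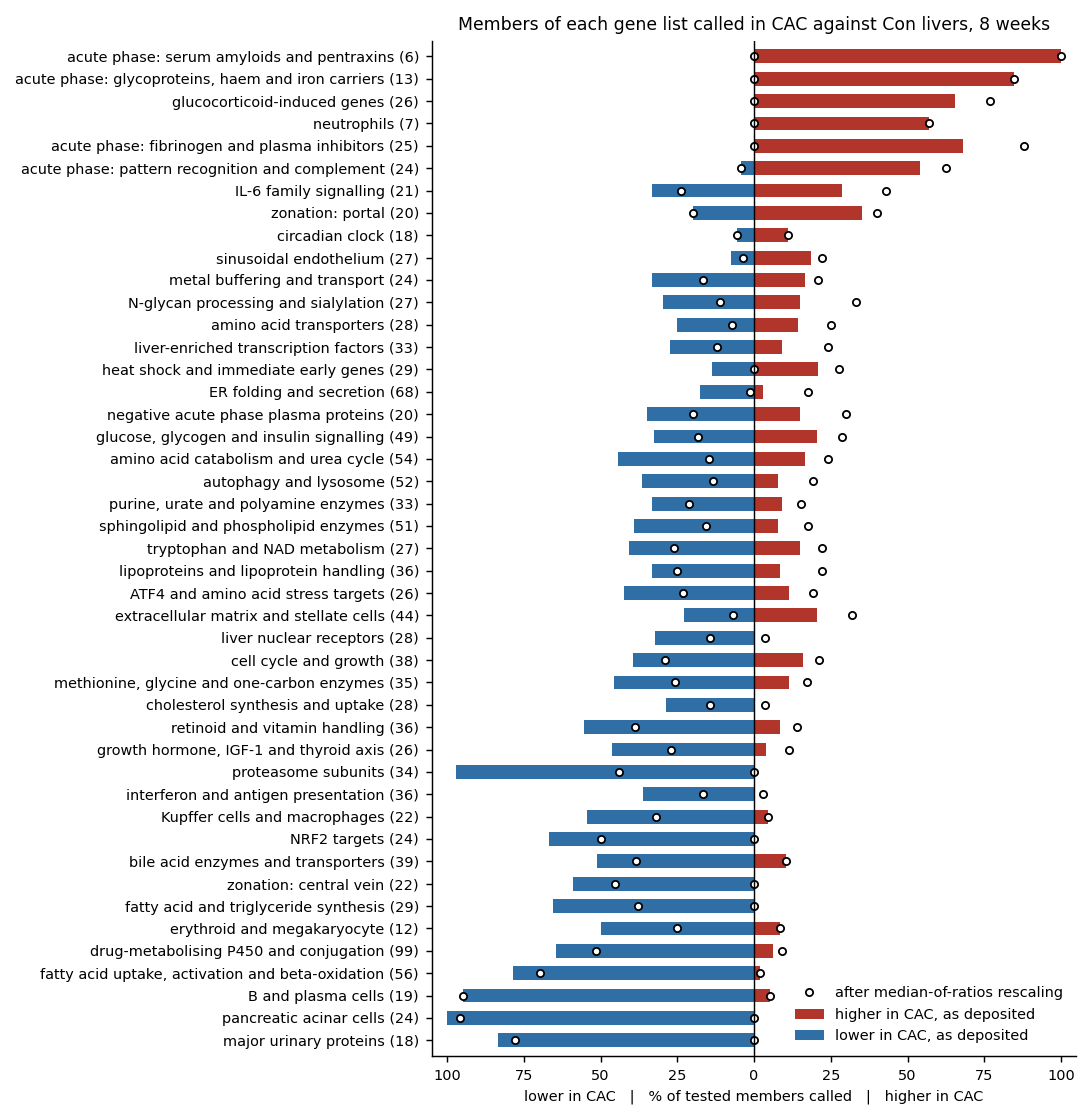
Percent of the tested members of each gene list (number tested in brackets) called higher (right) or lower (left) in CAC livers, as deposited (bars) and after median-of-ratios rescaling (circles), ordered by median difference. The amyloid, glycoprotein and glucocorticoid lists stand at the top; 44 of 56 fatty acid oxidation genes and 15 of 18 major urinary protein genes were lower.

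Glucose genes went in both directions, 10 of 49 being higher and 16 lower (14 and 9 after rescaling, 4 and 19 without the libraries with pancreatic transcripts). Lower calls as deposited were near their share over all genes (35.3%, and 13.9% after rescaling). Igfbp1, which insulin represses, had 35.8, 62.4 and 398 TPM as lowest, median and highest CAC values, against 21.8, 24.4, 13.1, 18.6 and 4.71 TPM in Con, and rose by 2.61 ± 0.66 (adjusted p = 0.00136). Glycogen phosphorylase (Pygl) and Ugp2, which makes the glycogen precursor, fell (-0.92 ± 0.16 and -0.94 ± 0.17). In gluconeogenesis the directions differed: the bisphosphatase Fbp1 fell by 0.94 ± 0.17 and G6pc was not called (-0.77, adjusted p = 0.182). Pck1 was higher by 0.70 ± 0.27 (adjusted p = 0.0302), a call lost without Con replicate 2 (0.47, adjusted p = 0.159), without CAC replicate 1 or Con replicate 1 (0.65 and 0.66) and without the libraries with pancreatic transcripts (0.42).

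In methyl group and nicotinamide metabolism single genes rose while most calls were lower, as over all genes (5.87% higher and 35.3% lower). Nnmt, which methylates nicotinamide with S-adenosylmethionine, had 147, 469.6 and 674 TPM as lowest, median and highest in CAC, against 14.0, 39.4, 51.2, 48.2 and 66.8 TPM in Con. All CAC livers lay above all Con livers, with replicate 3 the lowest, and the difference was 3.38 ± 0.50 (adjusted p = 5.33e-07). Mat1a, which makes S-adenosylmethionine in the liver, rose by 1.11 ± 0.19, while Gamt, which uses it to make creatine, fell by 1.55 ± 0.24 and the mitochondrial serine hydroxymethyltransferase Shmt2 fell by 0.80 ± 0.13. Over the methionine, glycine and one-carbon list 4 of 35 were higher and 16 lower (6 and 9 after rescaling). Of the tryptophan and NAD genes 4 of 27 were higher and 11 lower (6 and 7 after rescaling, 1 and 9 without the libraries with pancreatic transcripts). Aox3, an aldehyde oxidase that acts on methylnicotinamide, fell by 1.72 ± 0.28 and the NAD synthesis enzyme Nmnat1 fell by 0.58 ± 0.10. The tryptophan dioxygenase Tdo2 was higher by 0.64 ± 0.22 (adjusted p = 0.016), but not without CAC replicate 1 (adjusted p = 0.0687), CAC replicate 6 (adjusted p = 0.0703) or the libraries with pancreatic transcripts (adjusted p = 0.109).

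Amino acid genes went in both directions. Slc3a1, the heavy chain of the cystine and dibasic amino acid transporter, had 145, 262 and 385 TPM as lowest, median and highest CAC values, against 58.4, 37.5, 43.4, 42.3 and 47.3 TPM in Con. The groups did not overlap, and Slc3a1 rose by 2.50 ± 0.25 (adjusted p = 3.73e-11). The large neutral amino acid transporter Slc43a1 rose by 0.78 ± 0.15. Of 28 transporters 4 were higher and 7 lower (7 and 2 after rescaling). In catabolism and the urea cycle 9 of 54 were higher and 24 lower (13 and 8 after rescaling). Within the urea cycle, arginase (Arg1) rose by 1.01 ± 0.18 and argininosuccinate lyase (Asl) by 0.92 ± 0.23, while ornithine transcarbamylase (Otc), which joins carbamoyl phosphate to ornithine, fell by 0.86 ± 0.11. Sds, which deaminates serine, rose by 1.37 ± 0.28. In purine and polyamine metabolism 3 of 33 were higher and 11 lower (5 and 7 after rescaling), with spermine synthase (Sms) at -0.58 ± 0.10 and the antizyme Oaz1 at -0.75 ± 0.15.

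Detoxification genes were mostly lower. Of 99 P450 and conjugation genes 64 were lower and 6 higher (51 and 9 after rescaling), with a median of -0.82. Ugt1a9, which adds glucuronic acid, had 6.03, 17.3 and 74.9 TPM as lowest, median and highest CAC values, against 333, 231, 158, 209 and 161 TPM in Con. The groups did not overlap, and the difference was -3.29 ± 0.40 (adjusted p = 5.33e-09). The sulfotransferase Sult2a8 fell by 3.64 ± 0.41, Cyp2a22 fell by 2.94 ± 0.33, the glutathione transferase Gsta2 fell by 2.79 ± 0.32 and the carboxylesterase Ces3a fell by 2.77 ± 0.38. Cyp2e1, which oxidizes ethanol near the central vein, fell by 0.82 ± 0.13. Among NRF2 targets, the antioxidant program, 16 of 24 were lower and 0 higher (12 lower after rescaling), with the epoxide hydrolase Ephx1 at -2.26 ± 0.29, thioredoxin (Txn1) at -0.80 ± 0.12 and the glutathione synthesis subunit Gclc at -1.72 ± 0.30.

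Bile acid and retinoid lists held more lower than higher calls. Of 39 bile acid genes 4 were higher and 20 lower (4 and 15 after rescaling). Cyp8b1, the sterol 12-hydroxylase that sets the kind of bile acid made, had 7.80, 60.02 and 123 TPM as lowest, median and highest in CAC, against 261, 293, 337, 253 and 201 TPM in Con, with no overlap and a difference of -2.38 ± 0.37. Cyp7b1 of the alternative pathway fell by 1.63 ± 0.26 and the uptake transporter Slco1a1 fell by 4.59 ± 0.77, whereas Cyp7a1, which starts the classic pathway, was not called (-0.59 ± 0.68, adjusted p = 0.509). Of 36 retinoid and vitamin genes 3 were higher and 20 lower (5 and 14 after rescaling, 0 and 17 without the libraries with pancreatic transcripts). Retsat, a retinol saturase, fell by 2.20 ± 0.28, and Gulo, the last enzyme of vitamin C synthesis in mice, fell by 0.96 ± 0.14.

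The major urinary proteins, which depend on growth hormone pulses, showed some of the deepest falls. Of 18 major urinary protein genes, pheromone carriers made by the liver, 15 were lower (14 after rescaling), with a median of -4.55. Mup3 had 14.4, 99.6 and 799.9 TPM as lowest, median and highest CAC values, against 2552, 3374, 1718, 3082 and 1964 TPM in Con. No CAC liver reached the Con range, and Mup3 fell by 4.72 ± 0.58 (adjusted p = 6.67e-09). The copies of this family can share reads, so Mup1 (-4.54), Mup2 (-4.58), Mup7 (-6.08), Mup9 (-5.74), Mup10 (-4.57), Mup12 (-7.15), Mup14 (-7.03), Mup16 (-5.32) and Mup17 (-5.01) are uncertain one by one. Car3, a carbonic anhydrase, had 1.03, 11.95 and 237 TPM in CAC against 1279, 942, 1207, 1264 and 798 TPM in Con, and Hao2, a peroxisomal hydroxyacid oxidase, fell by 4.76 ± 0.42. Car3 separated the groups, with a difference of -6.11 ± 0.57. The receptor Ghr fell by 0.67 ± 0.15 as deposited, a call lost with the acute phase lists removed and after quantile normalization, its feedback target Cish was not called (0.41 ± 0.50, adjusted p = 0.529), and Igf1 was not called as deposited (0.13, adjusted p = 0.414) and was higher after rescaling (0.38, adjusted p = 0.0174). Igfbp2, which binds IGF-1, fell by 2.06 ± 0.27. Among central vein genes 13 of 22 were lower (10 after rescaling), among them the Wnt inhibitor Notum (-1.46 ± 0.17) and Aldh3a2 (-2.12 ± 0.27). Among portal genes 7 of 20 were higher and 4 lower; Arg1 and Fgb were higher and Cyp2f2 (-0.95 ± 0.16) and the ethanolamine phosphate lyase Etnppl (-2.03 ± 0.35) lower.

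Protein handling lists held fewer lower calls after rescaling, as did all genes together. Of 34 proteasome subunits 33 were lower as deposited and 15 after rescaling, beside 35.3% and 13.9% of all genes. Psma6 was at -0.59 ± 0.08, Psmb7 at -0.58 ± 0.08 and Psmb5 at -0.64 ± 0.10. Of 68 genes for folding and secretion 2 were higher and 12 lower, but 12 and 1 after rescaling, so the balance of this list turned with the scaling (1 and 8 as deposited without the libraries with pancreatic transcripts). Xbp1, which expands the secretory apparatus, rose by 0.36 ± 0.13 (adjusted p = 0.0213), a call lost without Con replicate 3 (adjusted p = 0.109). Of 27 glycan genes 4 were higher and 8 lower (9 and 3 after rescaling); the sialyltransferases split, with St3gal4 at 0.71 ± 0.15 and St3gal3 at -0.79 ± 0.12, and the branching enzyme Mgat5 at 0.61 ± 0.11. In autophagy and lysosomes 4 of 52 were higher and 19 lower (10 and 7 after rescaling), the lower calls near their share over all genes. The proteases Ctsl (1.13 ± 0.21) and Ctsc (0.73 ± 0.14) were higher, and the cargo receptor Sqstm1 (-0.81 ± 0.15) and Gabarapl1 (-0.92 ± 0.16) lower. Of 26 ATF4 targets, which respond to amino acid shortage, 3 were higher and 11 lower (5 and 6 after rescaling). Chac1, which degrades glutathione, rose by 1.55 ± 0.40, while the tRNA synthetase Cars fell by 0.75 ± 0.14.

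Fgf21, a fasting and stress hormone of the liver, had 0.163, 0.380 and 1.25 TPM as lowest, median and highest CAC values, against 7.56, 5.11, 2.93, 3.07 and 0.667 TPM in Con, and fell by 1.51 ± 0.28 (adjusted p = 2.44e-05). Its groups overlapped. Gdf15, which acts on appetite through the brain stem, had 0.165, 0.710 and 1.18 TPM in CAC against 1.19, 3.73, 3.02, 1.54 and 1.26 TPM in Con, without overlap (-0.89 ± 0.24, adjusted p = 0.00269). Of 31 hormone genes 8 were higher and 7 lower (10 and 5 after rescaling), the higher ones including Orm1 and Orm2, which are also in an acute phase list. Fst, which traps activins, rose by 1.52 ± 0.27, the activin subunit gene Inhbb by 1.10 ± 0.24 and the fibrinogen-like Fgl1 by 1.10 ± 0.18. In growth control, cyclin D1 (Ccnd1) had 1.38, 13.3 and 25.1 TPM as lowest, median and highest in CAC, against 71.9, 38.1, 88.3, 75.4 and 72.8 TPM in Con. Ccnd1 fell without overlap (-2.75 ± 0.43), Pcna fell by 0.61 ± 0.09 and the antiproliferative Btg2 rose by 1.94 ± 0.24. Of 38 cell cycle and growth genes 6 were higher and 15 lower (8 and 11 after rescaling), against 35.3% and 13.9% lower over all genes. Further large rises were those of the chemokines Cxcl14 (3.73 ± 0.33) and Cxcl1 (3.67 ± 0.43), the inositol synthase Isyna1 (3.13 ± 0.29) and the translation repressor Eif4ebp3 (3.20 ± 0.73). The smallest adjusted p of all genes belonged to Chil1, a chitinase-like protein (3.03 ± 0.21), and Selp, the adhesion molecule P-selectin (1.95 ± 0.14), picked after their values were seen.

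Markers of other cell types moved in different directions, and in bulk tissue fewer cells of a type and less RNA per cell cannot be told apart. Of 22 macrophage genes 1 was higher and 12 lower (1 and 7 after rescaling); the whole list of 24 summed to 412.4 to 1189.8 TPM in CAC and 944.6 to 1620.5 TPM in Con. NCAC livers summed to 602.9 to 909.1 TPM, and against them 1 macrophage gene was higher and 1 lower in CAC. Lysozyme (Lyz2) fell by 1.61 ± 0.34, the folate receptor Folr2 of resident macrophages fell by 1.31 ± 0.30, and Cd68 fell by 0.85 ± 0.21. Of 36 interferon and antigen presentation genes 13 were lower (6 after rescaling), shares near those over all genes (35.3% and 13.9%), with the class II genes H2-Aa at -1.75 ± 0.38 and Cd74 at -1.66 ± 0.35. B cell genes were lower too, 18 of 19 with all libraries and 10 without those with pancreatic transcripts, and Cd79b fell by 2.09 ± 0.33; the 21 genes summed to 168.5 to 299.1 TPM in CAC and 242.1 to 3116.8 TPM in Con, where replicates 2 and 4 held 3116.8 and 2320.6 TPM and the others 242.1 to 422.2 TPM. Against NCAC 4 B cell genes were lower in CAC. Of 4 tested T and NK cell genes 4 were lower, and 2 without those libraries. Cd3d, Cd3e, Cd3g, Trac, Trbc1, Trbc2, Cd4 and Cd8a did not pass the filter. Endothelial genes split: 5 of 27 were higher and 2 lower (3 and 2 without the libraries with pancreatic transcripts), with the lectin Clec4g at 0.85 ± 0.21 and the ligand Wnt2, which maintains the central vein zone, at -1.19 ± 0.17. In the matrix list 9 of 44 were higher and 10 lower (14 and 3 after rescaling, 8 and 5 without the libraries with pancreatic transcripts). The protease inhibitor Timp1 rose by 1.27 ± 0.21 and fibronectin (Fn1) by 0.81 ± 0.15.

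Neutrophil and erythroid lists rested on few genes. Prtn3, a granule protease, had 49.2, 71.8 and 115 TPM as lowest, median and highest CAC values, against 1.30, 1.27, 0.591, 1.68 and 1.13 TPM in Con, and rose by 5.11 ± 0.49. Its groups lay far apart. The neutrophil markers S100a8 (0.15 ± 0.37) and S100a9 (0.05 ± 0.40) were not called, though 4 of 7 tested members were higher and the 21 listed genes summed to 149.7 to 514.6 TPM in CAC and 23.5 to 44.6 TPM in Con. In CAC most of that sum came from Prtn3 and from Cxcl1, a chemokine that draws neutrophils and is made by other cells as well, at 75.8 to 354 TPM in CAC and 6.61 to 14.2 TPM in Con. Globin transcripts were highest in CAC replicate 3, with 6171 TPM of Hbb-bs, and the erythroid list summed to 82.1 to 16112.5 TPM in CAC and 1397.9 to 4747.5 TPM in Con. The part of these cells in the results was not tested. Of 12 tested erythroid and megakaryocyte genes 1 was higher and 6 lower (1 and 3 after rescaling), against 35.3% and 13.9% lower over all genes. The higher one was the megakaryocyte integrin Itga2b (1.46 ± 0.18), and the erythroid carbonic anhydrase Car1 fell by 2.22 ± 0.26. Of the melanocyte lineage, 3 genes were tested: Dct was higher by 0.56 ± 0.23 (adjusted p = 0.0477), a call lost when any 1 of CAC replicates 3, 4, 6 and 7 and Con replicates 1, 3 and 4 was left out, and Pmel (0.23) and Mitf (-0.05) were not called.

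The spread within CAC was largest in a few gene families. By the SD of log2 values over the 7 CAC livers, the 10 most variable genes were Rps26-ps1, Rps26, Hba-a2, Gm6166, Hamp, Hbb-bt, Gm9843, Hamp2, Hbb-bs and Gm4788, several of them copies of ribosomal, globin or hepcidin genes that can share reads. Hamp2 was at 5.09 TPM in CAC replicate 3 and at 0 to 251 TPM over the CAC group, against 366, 342, 685, 381 and 211 TPM in Con. The carboxylesterase Ces1f stood at -3.49 with replicate 3 and at -4.09 without it.

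**Figure D4:**
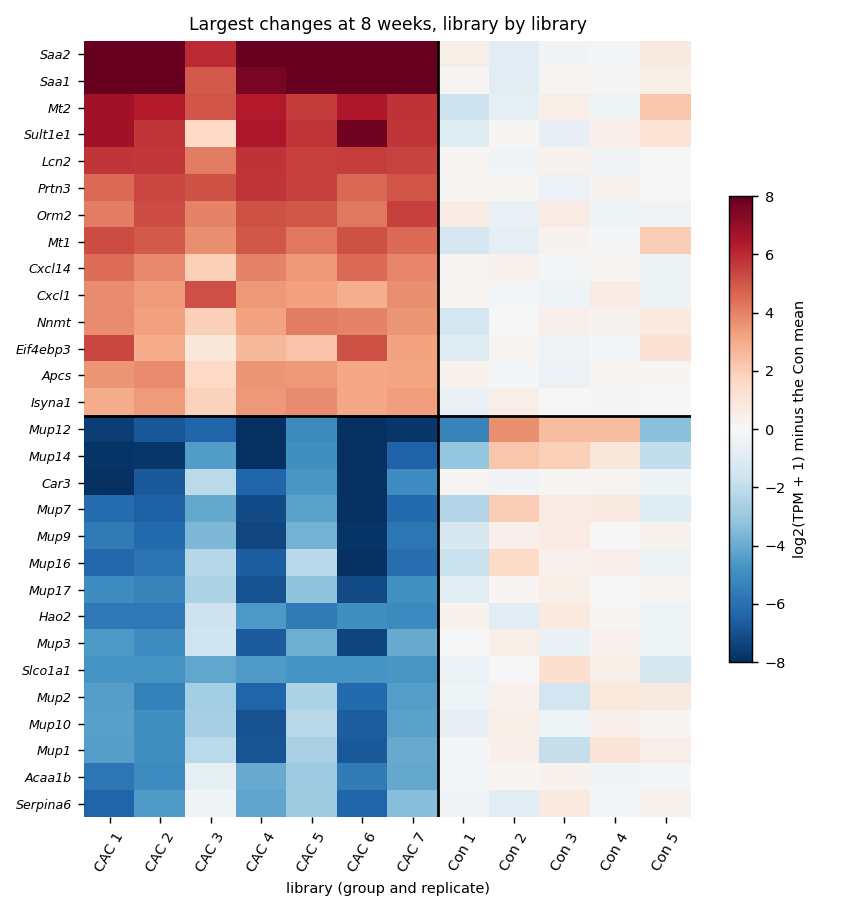
Difference of log2(TPM + 1) from the Con mean (colour) for the 14 largest increases and 15 largest decreases (rows) in each CAC and Con liver (columns). CAC replicate 3 shows the palest column of the CAC livers, for example in Saa2 and Car3.

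The changes at 8 weeks were set beside the earlier weeks and the non-cachectic tumour. CAC minus Con had 1 gene called higher (0.00822%) at 2 weeks, 158 higher (1.3%) and 74 lower (0.609%) at 4 weeks, and 608 higher (5%) and 1254 lower (10.3%) at 6 weeks. Acute phase genes were called early: Saa1 was at 1.98 ± 0.85, 6.40 ± 0.85 and 6.97 ± 0.85 at 2, 4 and 6 weeks, and Lcn2 at 0.87 ± 0.57, 4.37 ± 0.57 and 5.29 ± 0.57. Both passed the test from 4 weeks on. Fabp1 was at 0.08 ± 0.41, -0.59 ± 0.41 and -1.86 ± 0.41, and Serpina6 at -0.53 ± 0.60, -0.81 ± 0.60 and -3.01 ± 0.60, both called from 6 weeks on. Ccnd1 was at -0.83 ± 0.46, -0.69 ± 0.46 and -1.27 ± 0.46, called at 8 weeks alone. Of fatty acid oxidation genes 0 were lower at 4 weeks, 38 at 6 weeks and 44 at 8 weeks. The test of the 8-week against the 6-week difference called 0 genes with limma, the smallest adjusted p being 0.0650, with 231 positive and 1958 negative at an unadjusted p under 0.05. This count rested on single libraries: it was 771 without 8-week CAC replicate 3 and 388 without 8-week Con replicate 5.

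**Figure D5:**
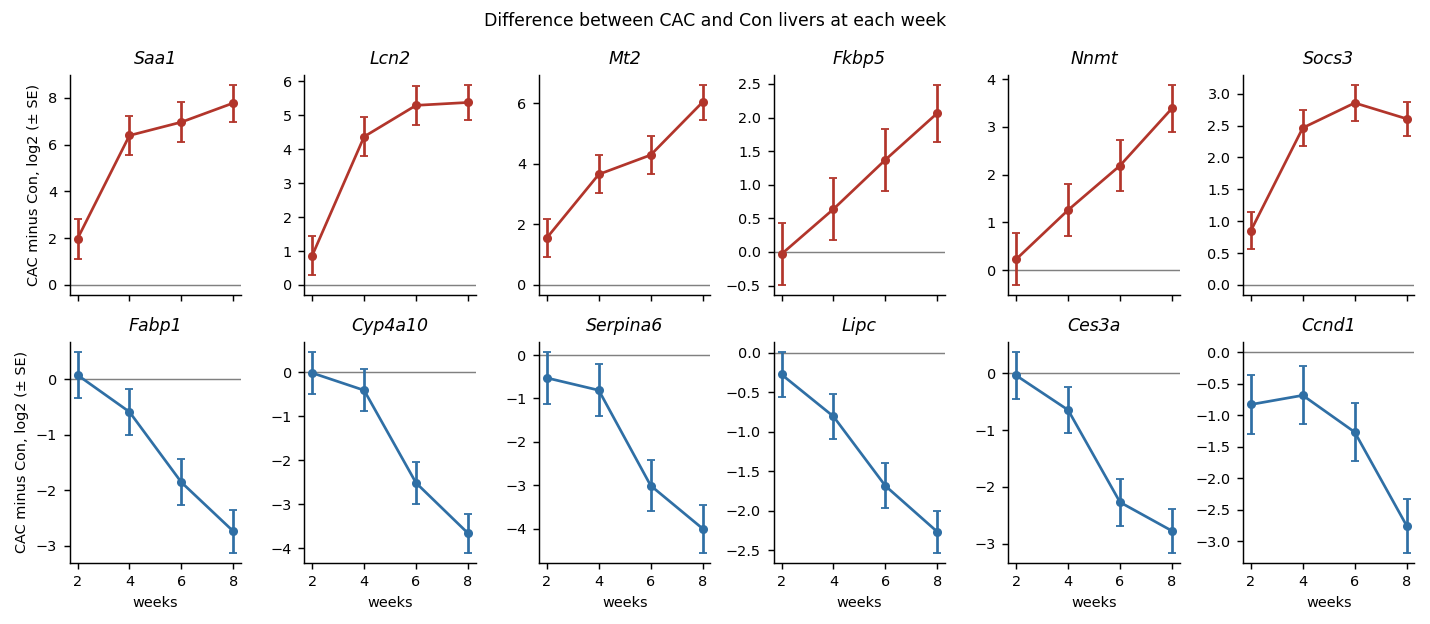
CAC minus Con on log2(TPM + 1) with its standard error (y axis) at 2, 4, 6 and 8 weeks (x axis) for 12 genes. Saa1 stands at 6.40 ± 0.85 at 4 weeks, while Fabp1 stands at -0.59 ± 0.41 there and at -1.86 ± 0.41 at 6 weeks.

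Against the non-cachectic tumour at 8 weeks, 619 genes (5.09%) were higher and 5244 (43.1%) lower in CAC, while NCAC minus Con had 3 higher (0.0247%) and 19 lower (0.156%). These comparisons share libraries and are given side by side. Genes called against NCAC numbered 5863 as deposited and 3076 after rescaling, and the rescaled split by direction is not given here. Saa2 stood at 8.10 ± 0.94 against NCAC, Saa1 at 6.87 ± 0.79, Prtn3 at 4.77 ± 0.49, Lcn2 at 4.73 ± 0.53 and Orm2 at 4.55 ± 0.38. Car3 stood at -6.05 ± 0.57, Hao2 at -4.92 ± 0.42, and of the fatty acid oxidation genes 48 were lower than in NCAC. Mt2 was at 3.72 ± 0.58 against NCAC and at 6.04 ± 0.58 against Con, and NCAC livers held 101.4 to 492.9 TPM of Mt2.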

How the data were processed

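RNA was measured in 62 liver libraries of 12 groups of mice. The authors deposited 1 table of TPM per gene and library, and the mm10 build is named per the submitters' processing notes; the aligner and quantifier were not given in the sources used here. All 62 columns were mapped to samples by name, and 0 columns of other samples were left unused. TPM values hold no counts, so read depth and its error are unknown. Of 47643 listed genes, the 12160 that reached 1 TPM in 5 or more libraries entered the tests, on log2(TPM + 1).

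A limma 3.58.1 model in R 4.3.3 was fitted to all 62 libraries with 1 term per group, giving moderated tests with Benjamini-Hochberg adjustment over all genes tested. It was checked on simulated independent normal values with the same spread in every group, which could not test scaling or unequal spread. Rescaling used median-of-ratios factors of the TPM. Alternatives were other scalings, pseudocounts, filters, fits and single libraries left out. Another alternative dropped the 9 libraries where Ctrb1 reached 100 TPM. Promoters came from RefSeq, and figures were drawn with matplotlib 3.10.9 in Python 3.11.15.

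Named genes were the 15 largest increases and decreases called under both scalings, the 10 largest gains and losses of mean TPM, up to 4 members of each of 52 lists by smallest p, the extremes against NCAC, the 10 most variable genes in CAC, and 38 genes given whatever their result. Members and lists were chosen with earlier results of these data known, and further members named for their role were picked after their values were seen. Shared replicate numbers were not taken to pair libraries. Labels call the libraries biological replicates. The p-values set each difference against the spread within groups, pooled over all groups of the series and moderated. That is not the spread of the compared livers alone. In the acute phase share the SD was 6.17% in CAC and 0.52% in Con at 8 weeks. A few genes that the naming rule picks are not reported here.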

Additional observations from a re-analysis of the deposited data

Results flagged for a closer look

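Library by library, 72 of 424 groups of values held 1 library far from the rest of its group. The rule flags about 1 in 20 groups of independent normal values. Here the values were TPM without a log, of genes named for large or variable values that move together. That rate is therefore no yardstick for the 72 flags. CAC replicate 3 accounted for 48 of the flags above and 4 below its group. In CAC replicate 1 the values above the group were Btg2 44.9 TPM and Fst 18.9 TPM. In CAC replicate 1 the values below the group were Nr3c1 12.8 TPM. In CAC replicate 3 the values above the group were Acaa1b 492 TPM, Bdh1 166 TPM, Car1 3.76 TPM, Car3 237 TPM, Cebpa 252 TPM, Ces1f 197 TPM, Ces3a 344 TPM and Cxcl1 354 TPM. Further values there were Cyp4a10 132 TPM, Cyp7b1 18.3 TPM, Dbp 155 TPM, Ehhadh 145 TPM, Elovl2 257 TPM, Elovl5 304 TPM, Ephx1 182 TPM and Fabp1 16608 TPM. Added to these were Fads2 438 TPM, Fbp1 1025 TPM, Ftl1 5575 TPM, Gabarapl1 409 TPM, Gm6166 428 TPM, Gsta2 23.3 TPM, Hadha 95.1 TPM and Hao2 20.4 TPM. Further values there were Hba-a2 5079 TPM, Hbb-bs 6171 TPM, Hbb-bt 1219 TPM, Lifr 52.4 TPM, Lipc 151 TPM, Mbl2 1398 TPM, Me1 71.2 TPM and Mup3 799.9 TPM. Added to these were Nmnat1 9.36 TPM, Oaz1 196 TPM, Otc 205 TPM, Psma6 122 TPM, Pygl 146 TPM, Rxrb 13.1 TPM, S100a8 23.7 TPM and S100a9 50.5 TPM. Further values there were Scap 48.9 TPM, Serpina6 603 TPM, Slco1a1 0.449 TPM, Sms 2.43 TPM, Sqstm1 184 TPM, Sult2a8 181 TPM, Txn1 295 TPM and Ugp2 146 TPM. In CAC replicate 3 the values below the group were Hp 10016 TPM, Hpx 12946 TPM, Lcn2 384 TPM and the acute phase share of TPM at 14.8%. In CAC replicate 4 the values above the group were Ctsc 96.5 TPM. In CAC replicate 5 the values above the group were Mup12 7.89 TPM. In Con replicate 1 the values above the group were Gclc 190.4 TPM and Trf 11284 TPM. In Con replicate 2 the values above the group were Ctrb1 1906 TPM and S100a8 9.21 TPM. In Con replicate 2 the values below the group were Sms 1.72 TPM and Ugp2 113 TPM. In Con replicate 3 the values above the group were Fbp1 1524 TPM, Pmel 1.42 TPM and Rps26-ps1 544 TPM. In Con replicate 4 the values above the group were Hamp 3283 TPM. In Con replicate 5 the values above the group were Fkbp5 36.9 TPM, Igf1 197 TPM, Mt1 602 TPM and Mt2 234 TPM. In Con replicate 5 the values below the group were Nr1d1 13.7 TPM. The cause was not tested.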

How the results depend on the processing

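The total of 5005 genes called became 3246 after median-of-ratios rescaling, with 1556 higher and 1690 lower. With the acute phase lists removed it was 3140, with 1896 higher and 1244 lower, and after quantile normalization 1782 were higher and 1633 lower. At a mean of at least 5 TPM 416 were higher. A fit to the 12 CAC and Con libraries alone, without the other groups, called 3375 genes. Of these 511 were higher and 2864 lower, and 592 changed at least 2-fold. Genes changed at least 2-fold numbered 667, but 1062 with a pseudocount of 0.1 and 443 at a mean of at least 5 TPM. Genes called against NCAC numbered 5863, but 3076, 2797 and 3314 under these 3 rescalings. Leaving out 1 of the 12 CAC and Con libraries of 8 weeks (no 6-week or NCAC library was left out), the genes called numbered 4214 to 5652 in all, 594 to 846 at least 2-fold, 605 to 798 higher, 3572 to 4854 lower, 0 to 771 in the 8-week minus 6-week test and 5224 to 6343 against NCAC. The 8-week minus 6-week test, with 0 calls, gave 1 at a mean of at least 5 TPM and 757 with array weights.

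The shared replicate numbers did not pair the libraries: same-numbered CAC and Con livers had correlations of 0.0858, -0.138, 0.0742, -0.0749 and -0.154, and 1 of 5 correlated best with its own number. With the replicate block, fitted to the libraries of each contrast alone, 476 genes were called, 174 higher and 302 lower. Of these 285 changed at least 2-fold, and 2134 genes were called against NCAC. The same libraries without the block gave 3375 genes against Con and 5246 against NCAC. Replicates 6 and 7 exist in CAC alone, so with the block these livers do not inform the difference.

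Apart from mt-Atp6, mt-Co2 and mt-Co3, which were called lower as deposited, the named genes that changed direction were not called with all libraries. With array weights they were Alb at -0.025, Gm4788 at 0.80 and Gm6166 at 0.61. Without the libraries with pancreatic transcripts they were Alb at -0.035, Arntl at 0.50, Cish at -0.098, Gm4788 at 1.45, Gm6166 at 0.78 and Rps26 at 0.19. After median-of-ratios rescaling they were Arntl at 0.079, C1ra at 0.071, C1s1 at 0.18, Gm6166 at 0.012, Mitf at 0.070 and Serpina1e at 0.14. With the acute phase lists removed they were Arntl at 0.14, Cpt1a at 0.022, Gm4788 at 0.043, Gm6166 at 0.085, Mitf at 0.11, Nr3c1 at 0.067, mt-Atp6 at 0.042, mt-Co2 at 0.0053 and mt-Co3 at 0.060. After quantile normalization they were Arntl at 0.079, C1ra at 0.18, C1s1 at 0.30, Cpt1a at 0.044, Gm4788 at 0.033, Gm6166 at 0.099, Mitf at 0.14, Serpina1a at -0.15 and Serpina1e at 0.25. With the replicate block they were Arntl at 0.033, C1s1 at 0.019 and Gm4788 at 0.42. With a pseudocount of 0.1 they were Gm6166 at 0.027. Over single libraries left out, the ranges were Alb -0.00069 to 0.063, Arntl -0.38 to 0.19, C1s1 -0.19 to 0.056, Gm4788 -0.82 to 0.54, Gm6166 -1.39 to 0.58, Gm9843 -1.50 to 0.25, Hamp -1.35 to 0.11, Mitf -0.077 to 0.0013, S100a8 -0.19 to 0.38, S100a9 -0.29 to 0.27 and Serpina1e -0.23 to 0.019.

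Read depth is unknown from TPM, so no counting error can be given, and changes of genes near 1 TPM are the least secure.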
